A study of Mus musculus with 18 samples.

Results

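The comparison described here is that of iHoxc6 neurons with iHoxc9 neurons, which takes 6 of the 18 RNA-seq libraries of the series, 3 of each kind. The libraries were chosen by their labels, and the comparison was made across all genes. Both kinds of neuron came from mouse embryonic stem cells that were differentiated as embryoid bodies with retinoic acid and the Hedgehog agonist SAG from day 0. In each line doxycycline (Dox) drives a Flag-tagged Hox transgene, Hoxc6 or Hoxc9, from a single copy at the Hprt locus, and each group is 1 such line. Dox was given at 3 µg/ml for 48 h and the embryoid bodies were collected on day 4, when they held motor neurons and interneurons together, so the values are averages over cell types. Control neurons, named where they help to read a value, came from the iHoxc6 line on day 4 without Dox, and iHoxc10 neurons carried a Hoxc10 transgene and received the same Dox treatment. Libraries of iHoxc6 and control shared a sequencing run, and those of iHoxc9 and iHoxc10 shared another. Between iHoxc6 and iHoxc9 the Hox gene therefore cannot be told apart from the line and the run, and for the main genes the values within each run are given as well. In bulk samples, fewer cells of a type and less RNA per cell cannot be told apart.

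Hox genes encode homeodomain transcription factors that lie in 4 clusters, and their order along each cluster follows the order of their expression along the body axis. In the developing spinal cord, Hoxc6 marks the brachial level, where lateral motor column neurons innervate the forelimb. Hoxc9 marks the thoracic level, which has no limb and holds preganglionic and hypaxial motor columns. Retinoic acid made by some of these neurons, transcription factors of each column, and guidance and adhesion molecules are known to follow the Hox pattern.

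The label check held for both lines, with each transgene's product high where it was induced. Hoxc6 (chr15:102998226-103011882, GRCm38, plus strand) was 532, 499.9 and 512 CPM (read counts scaled to library size by the TMM method) in the iHoxc6 libraries and 1.96, 2.33 and 2.15 CPM in the iHoxc9 libraries. Hoxc9 (chr15:102977032-102984444, plus strand) had 0 counts in all 3 iHoxc6 libraries and was 224, 236 and 213 CPM in the iHoxc9 libraries, at least 6740-fold higher when iHoxc6 is set at a floor of 3 counts over its 3 libraries. The counts do not separate transgene reads from those of the gene's own locus. Per kilobase of annotated exon, the level of Hoxc6 in iHoxc6 neurons was 214 ± 6.75 CPM (SD, n = 3) and that of Hoxc9 in iHoxc9 neurons was 92.3 ± 4.63 CPM. The length used is that of the annotated gene, and the transcript of the transgene may differ from it. The study described the RNA levels of its induced Hox genes as similar. Hprt, the gene at the site of both transgenes, was 11.4, 12.01 and 13.6 CPM in iHoxc6 and 8.02, 8.01 and 8.76 CPM in iHoxc9, with a log2 fold change of -0.58 (SE 0.17, edgeR adjusted p = 0.0155). It was chosen after its values were seen.

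The 6 libraries held 24498630 to 33168533 counts, so that 3 counts amount to 0.0905 to 0.123 CPM, which reflects counting error alone. The quasi-likelihood test of edgeR was run over 20944 genes, and every log2 fold change is iHoxc9 minus iHoxc6, so that positive values are higher in iHoxc9. Called genes are those with an adjusted p (Benjamini-Hochberg) under 0.01 whose log2 fold change was over 2 or under -2. By this rule 521 genes differed, 303 higher in iHoxc9 (1.45% of the genes tested) and 218 lower (1.04%). In 520 of them all 3 libraries of one group lay above all 3 of the other, the exception being the small RNA gene Rny3. The calls rest on these same libraries, so this separation is not separate support for them. Of the called genes, 355 had a mean of at least 1 CPM in the group where they were higher and 166 were below 1 CPM in both groups. At the adjusted p alone, 1680 genes were higher in iHoxc9 (8.02%) and 770 lower (3.68%). More genes were thus higher than lower over all genes, and these shares are the background for the counts of every list below. They are taken over all 20944 genes, of which 13009 had a mean of at least 1 CPM over both groups. Many lists hold mostly genes above that level, and the shares may be too low a background for them. A list with 0 called genes is near these shares.

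**Figure D1:**
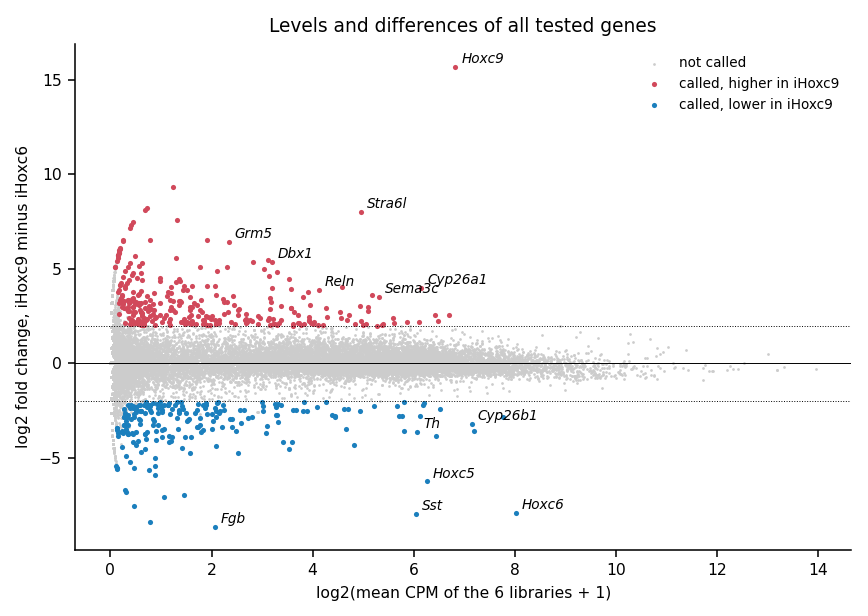
Each point is 1 of the 20944 genes tested, with log2 of the mean CPM over the 6 libraries plus 1 on the horizontal axis and the log2 fold change, iHoxc9 minus iHoxc6, on the vertical axis. The 303 genes called higher in iHoxc9 are red, the 218 called lower are blue, and the dotted lines mark a log2 fold change of 2 and -2.

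The difference between the groups moved with gene properties. Among 12441 of the 13009 genes with a mean of at least 1 CPM over both groups, the median log2 fold change was 0.52 in the lowest of 5 equal bins by exon GC content and -0.23 in the highest. By gene span it was -0.27 in the bin of the shortest genes and 0.29 in that of the longest. The trend with span was small within a run, from -0.04 to 0.06 for iHoxc6 minus control and from 0.04 to 0.06 for iHoxc9 minus iHoxc10. The trend with GC content went from -0.34 to 0.19 for iHoxc6 minus control and from 0.19 to -0.09 for iHoxc9 minus iHoxc10. The median span was 67940 bases for the genes called higher, 19440 for those called lower and 19160 for all genes tested. With an offset for GC content, gene span and exon length in the fit (called the offset from here on), 437 genes were called, of which 400 were among the 521, and the genes higher in iHoxc9 at the adjusted p alone went from 68.6% to 55.0% of those that passed. With it 1105 genes were higher and 903 lower at the adjusted p, the background for list counts with the offset. Calls lost with the offset are named beside each group, and the part of GC content and length in the other differences was not tested.

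**Figure D2:**
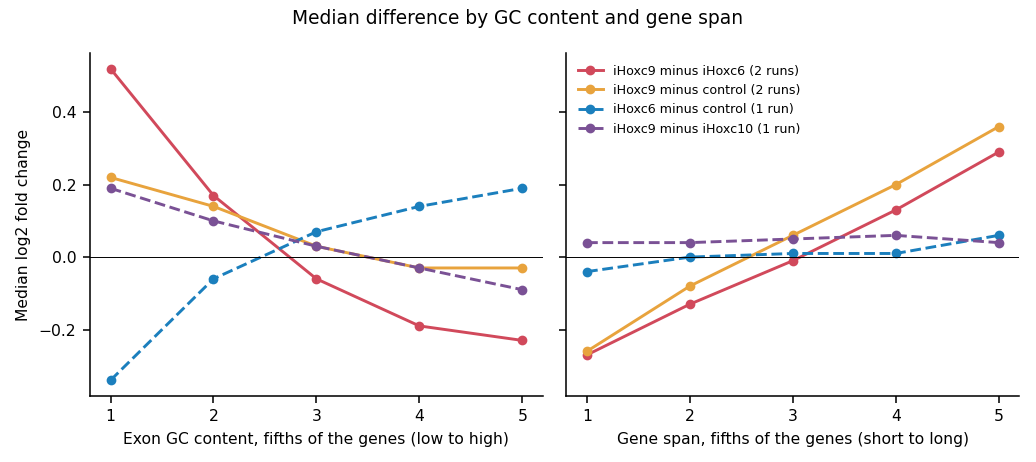
Median log2 fold change on the vertical axis for 5 equal bins of genes by exon GC content (left) and by the span of the gene (right), for iHoxc9 minus iHoxc6 and, for reference, 3 contrasts with control or iHoxc10. By span the 2 contrasts across runs rise from below -0.2 to above 0.2, while the contrasts within a run (dashed) stay between -0.04 and 0.06.

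Hox genes of paralog groups 1 to 5, the rostral genes of the clusters, were lower in iHoxc9 neurons. In this list of 15 genes, 14 passed the adjusted p in that direction and 7 of them were called, against 3.68% and 1.04% of all genes, with a median log2 fold change of -2.11 over the list and 0.00 over all genes tested. Summed over the list, the level was 1375 to 1419 CPM in the iHoxc6 libraries and 288 to 339 CPM in the iHoxc9 libraries. Hoxc5 (chr15:103014008-103017429) was 156, 149.7 and 144 CPM in iHoxc6 and 1.995, 2.38 and 1.51 CPM in iHoxc9, with a log2 fold change of -6.24 (SE 0.20, edgeR adjusted p = 7.43e-16). Its neighbour Hoxc4 was 159, 155 and 145 CPM in iHoxc6 and 24.7, 33.7 and 27.98 CPM in iHoxc9, with a log2 fold change of -2.41 (SE 0.14, edgeR adjusted p = 3.94e-11). These genes lie on the same side of the cluster, and for both the groups were far from overlapping. In the HoxB cluster Hoxb5 was 350.4, 387 and 403 CPM in iHoxc6 and 43.2, 58.98 and 58.04 CPM in iHoxc9, with a log2 fold change of -2.83 (SE 0.21, edgeR adjusted p = 2.21e-09). Hoxb4 was 87.2, 91.1 and 103 CPM in iHoxc6 and 12.2, 14.7 and 13.5 CPM in iHoxc9, with a log2 fold change of -2.80 (SE 0.15, edgeR adjusted p = 1.77e-11). In the HoxA cluster Hoxa4 had a log2 fold change of -2.82 and Hoxa5 one of -2.11, and Hoxd1, at 0.697, 0.934 and 0.834 CPM in iHoxc6, one of -2.21. Lower at the adjusted p alone were, among others, Hoxa3 (-1.84), Hoxb2 (-1.33), Hoxd4 (-1.29), Hoxb3 (-1.22), Hoxd3 (-1.18) and Hoxa2 (-0.87). Hoxb1, with 2 counts in the iHoxc9 libraries together, was 0.244, 0.498 and 0.243 CPM in iHoxc6 and had an edgeR adjusted p of 0.015, or 0.00776 with the replicate number as a block and 0.00804 with DESeq2's Wald test. Of the exon length of Hoxa3, Hoxb2, Hoxb3, Hoxd3 and Hoxd4, 27.1% to 62.8% is shared with other genes, so their values are uncertain.

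Within runs, the log2 fold changes of the 15 genes were -1.17 to 0.68 for iHoxc6 minus control, where 0 passed the adjusted p, and -4.90 to -1.07 for iHoxc9 minus iHoxc10, where 14 passed. Hoxc5 was -0.38 for iHoxc6 minus control and -4.90 for iHoxc9 minus iHoxc10, with mean levels of 196 CPM in control and 59.5 CPM in iHoxc10. For Hoxb5 the values were -0.01 for iHoxc6 minus control and -3.01 for iHoxc9 minus iHoxc10, and for Hoxa4 they were -0.72 for iHoxc6 minus control and -3.27 for iHoxc9 minus iHoxc10. Hoxd1 was -1.17 for iHoxc6 minus control and -2.86 for iHoxc9 minus iHoxc10, with 1.84 CPM in control and 0.822 CPM in iHoxc6. With the offset Hoxa5 was at -1.87 and Hoxd1 at -1.85, and Hoxd1 was at -1.96 without iHoxc9 library 3.

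Among the brachial and thoracic paralogs the differences were less uniform. Of the 8 genes of groups 6 to 8, 4 were lower at the adjusted p and 1 was higher. Besides Hoxc6, Hoxb6 was called, at 121, 122 and 116 CPM in iHoxc6 and 13.2, 21.01 and 18.1 CPM in iHoxc9, with a log2 fold change of -2.78 (SE 0.21, edgeR adjusted p = 2.69e-09). Hoxb7 (-1.28) and Hoxb8 (-1.41) were lower at the adjusted p alone. Hoxd8 was higher at 1.99, from 0.279, 0.249 and 0.417 CPM to 1.45, 1.21 and 1.11 CPM, and it passed the fold threshold at 2.24 with the offset, at 2.01 with DESeq2's Wald test, and at 2.01 to 2.19 without iHoxc6 library 3 or iHoxc9 library 2 or 3. Hoxa6 (-0.22) and Hoxa7 (0.53) did not pass the test, and Hoxc8 was under 0.2 CPM in the 6 libraries compared. Of the 16 genes of groups 9 to 13, 9 were measured, and Hoxa9, Hoxa11, Hoxa13, Hoxc11, Hoxd10, Hoxd11 and Hoxd12 had 0 counts in every iHox library. Hoxb9 was called lower, at 6.94, 7.13 and 4.03 CPM in iHoxc6 and 1.02, 1.56 and 1.27 CPM in iHoxc9, with a log2 fold change of -2.22 (SE 0.34, edgeR adjusted p = 5.95e-05) and -1.97 with the offset. Hoxc10 had 0 counts in iHoxc6 and was 0, 0.353 and 0.0398 CPM in iHoxc9, with an edgeR adjusted p of 0.0303, or 0.0072 without iHoxc9 library 1. The other measured members of groups 9 to 13 (Hoxa10, Hoxb13, Hoxc12, Hoxc13, Hoxd9 and Hoxd13) did not exceed 0.07 CPM in the 6 libraries compared and did not pass the test.

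**Figure D3:**
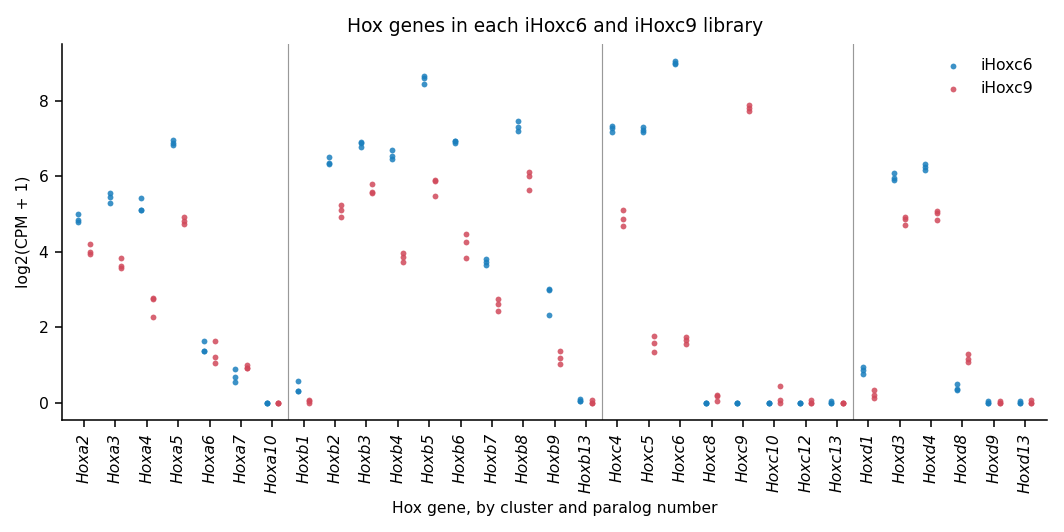
Points are single libraries, 3 for each group, with log2(CPM + 1) on the vertical axis and measured Hox genes in cluster order on the horizontal axis. Blue points (iHoxc6) lie above red points (iHoxc9) for every plotted gene of paralog groups 1 to 5, and Hoxc9 and Hoxd8 are the genes above 1 CPM where red lies above blue without overlap.

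Cofactors of Hox proteins, the PBX, MEIS and PREP homeodomain proteins, held no called gene. Over all genes 1.45% were called higher and 1.04% lower, so 0 calls among 9 genes is near that share. Of 9 genes, 0 were called by edgeR or by DESeq2, 4 had an unadjusted p under 0.05 by edgeR, and 1 was higher and 1 lower at the adjusted p, or 1 and 4 with the offset. Pknox2 was 58.4, 58.9 and 58.9 CPM in iHoxc6 and 17.6, 20.8 and 18.9 CPM in iHoxc9, with a log2 fold change of -1.62 (SE 0.19, edgeR adjusted p = 1.79e-06). Meis2 was 143, 129.5 and 149.7 CPM in iHoxc6 and 259.9, 238 and 258 CPM in iHoxc9, with a log2 fold change of 0.84 (SE 0.15, edgeR adjusted p = 0.000232), and 0.24 with the offset.

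Genes of limb motor columns and pools moved in both directions. Of 18 genes, 5 were higher and 6 lower in iHoxc9 at the adjusted p, with 3 and 2 of them called. Aldh1a2 (chr9:71215789-71296243), the enzyme with which lateral motor column neurons make retinoic acid, was 96.7, 104 and 65.2 CPM in iHoxc6 and 19.4, 26.96 and 18.5 CPM in iHoxc9, with a log2 fold change of -2.03 (SE 0.21, edgeR adjusted p = 3.47e-07). Every iHoxc6 library was above every iHoxc9 library. Within runs Aldh1a2 was 1.61 for iHoxc6 minus control and -3.08 for iHoxc9 minus iHoxc10, with 184 CPM in iHoxc10 and 29.1 CPM in control. Without 1 library its value crossed the threshold: Aldh1a2 was at -1.98 to -1.94 without iHoxc6 library 1 or 2 or iHoxc9 library 1 or 3, and it was at -1.87 with the offset. Runx1, a transcription factor of some cervical motor pools, was 5.26, 4.67 and 4.38 CPM in iHoxc6 and 0.704, 0.795 and 0.756 CPM in iHoxc9, with a log2 fold change of -2.65 (SE 0.35, edgeR adjusted p = 9.39e-06). Foxp1, the factor that sets the lateral motor column apart, was 117 ± 8.404 CPM (SD, n = 3) in iHoxc6 and 102 ± 8.48 CPM in iHoxc9, with a log2 fold change of -0.20 (SE 0.18, edgeR adjusted p = 0.471), and did not pass the test. Lhx1, which guides the lateral division of that column, was lower (-1.36), as were Pou3f1 (-1.81), Etv4 (-1.23) and Sema3e (-1.71). Met, the receptor of hepatocyte growth factor, was higher, at 10.8, 12.3 and 8.197 CPM in iHoxc6 and 51.7, 53.4 and 44.4 CPM in iHoxc9, with a log2 fold change of 2.25 (SE 0.23, edgeR adjusted p = 2.72e-07). Fign (2.44) and the cadherin gene Cdh8 (4.61) were called higher as well, and Bcl11b (1.25) and Ret (0.50) were higher at the adjusted p alone. With the offset Met was at 1.89 and Fign was at 1.75.

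Of 9 genes of the preganglionic, hypaxial and medial columns, 5 were higher in iHoxc9 and 0 lower at the adjusted p, with a median of 0.72. The called gene was Mecom, a zinc finger factor, at 5.19, 4.73 and 5.21 CPM in iHoxc6 and 23, 17.9 and 22.7 CPM in iHoxc9, with a log2 fold change of 2.07 (SE 0.19, edgeR adjusted p = 4.12e-08). Mecom was also higher within the run, at 0.08 for iHoxc6 minus control and 2.17 for iHoxc9 minus iHoxc10. Its value crossed the threshold in some settings: Mecom was at 1.97 to 1.98 without iHoxc6 library 2 or iHoxc9 library 3, and it was at 1.44 with the offset. Zeb2, a factor found in preganglionic neurons, was 28.5 ± 4.22 CPM in iHoxc6 and 81.7 ± 6.87 CPM in iHoxc9, with a log2 fold change of 1.52 (SE 0.20, edgeR adjusted p = 9.25e-06). Etv1 (1.12), a marker of hypaxial neurons, Lhx4 (0.76), a medial column factor, and Smad1 (0.53) were the others. Nos1, the enzyme that marks mature preganglionic neurons, was 0.942 ± 0.219 CPM in iHoxc6 and 0.663 ± 0.0859 CPM in iHoxc9 and did not pass the test, nor did Lhx3 (-0.60).

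Core motor neuron genes were present in both groups. Tubb3, a neuronal tubulin, was 3632 ± 69.9 CPM in iHoxc6 and 3086 ± 439 CPM in iHoxc9, and Chat, which makes acetylcholine, was 18.1 ± 1.85 and 12.7 ± 1.67 CPM, both without passing the test. Of 18 genes, 3 were higher and 5 lower at the adjusted p, and 0 were called by edgeR, 0 with DESeq2's Wald test, with 11 at an unadjusted p under 0.05. With the offset 1 was higher and 2 lower, and the median of the list went from -0.11 to 0.10. Isl2, a LIM homeodomain factor of motor neurons, was 15.97, 16.3 and 13.5 CPM in iHoxc6 and 48.7, 42.1 and 48.4 CPM in iHoxc9, with a log2 fold change of 1.60 (SE 0.22, edgeR adjusted p = 1.85e-05). Within runs its values were -1.57 for iHoxc6 minus control and 2.64 for iHoxc9 minus iHoxc10, so iHoxc9 was near control (45.4 CPM) and the other lines were lower. The related Isl1 was lower (-1.04), as were Olig2 (-1.04), Mnx1 (-0.66) and Nefh (-0.60). Onecut2 (1.31) and Elavl4 (0.89) were higher, and Onecut2 was at 0.73 with the offset and did not pass the test (edgeR adjusted p = 0.0376).

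Several transcription factors that mark spinal interneuron classes were higher in iHoxc9 neurons. Of 25 genes, 7 were higher and 2 lower at the adjusted p, with 5 and 2 called, or 10 and 2 with the offset, with 6 and 2 called. Without the offset, 8.02% of all genes were higher and 3.68% lower, with 1.45% and 1.04% called. Sim1, a factor of V3 interneurons, was 0.837, 0.498 and 0.452 CPM in iHoxc6 and 19.6, 16.4 and 15.2 CPM in iHoxc9, with a log2 fold change of 4.84 (SE 0.35, edgeR adjusted p = 1.5e-09). It was below 1 CPM in every iHoxc6 library and above 15 CPM in every iHoxc9 library. Nkx2-2, which marks the progenitors of V3 interneurons, was 10.9 ± 2.29 CPM in iHoxc6 and 29.5 ± 2.97 CPM in iHoxc9 (1.44), and Tlx3 was higher too (1.43). Sox14 had 3 counts in iHoxc6, a ratio of 32.5-fold (95% counting interval 10.8 to 160). Sox14, Lhx5 (2.53) and Pax2 (2.18), which mark V2 and inhibitory interneurons, were called at means of 1.03 to 1.69 CPM in iHoxc9. Called lower were Wt1, a marker of dI6 interneurons, at 3.103, 3.17 and 3.3 CPM in iHoxc6 and 0.117, 0.235 and 0.0398 CPM in iHoxc9, and Lmx1b, a marker of dorsal excitatory interneurons, with a log2 fold change of -2.45 (SE 0.60, edgeR adjusted p = 0.00553). Pax2 was at 1.80 to 1.96 without iHoxc6 library 2 or iHoxc9 library 2. Lmx1b had an edgeR adjusted p of 0.0145 to 0.0291 and a log2 fold change of -2.52 to -2.22 without iHoxc6 library 1 or 2 or iHoxc9 library 1 or 3. En1, Evx1 and Gata3, defining factors of the V1, V0 and V2b classes, were at 0.301, 0.327 and 0.0928 CPM in iHoxc6 and at 0.775, 0.341 and 0.219 CPM in iHoxc9, and Evx2 and Barhl1 had 0 counts in both groups.

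Among 22 progenitor genes Dbx1, which marks p0 progenitors, was the called one. It was 0.453, 0.218 and 0.486 CPM in iHoxc6 and 16.3, 14.2 and 17.4 CPM in iHoxc9, with a log2 fold change of 5.37 (SE 0.35, edgeR adjusted p = 4.25e-10), and -0.39 for iHoxc6 minus control and 4.4 for iHoxc9 minus iHoxc10 within runs. Of the list, 4 genes were higher and 4 lower at the adjusted p, or 4 and 1 with the offset. Sox9 (1.06), Sox2 (0.88) and Sox1 (0.71) were higher, and Olig1 (-1.54), Hes5 (-1.48), Olig2 (-1.04) and Irx3 (-0.89) were lower. With the offset Hes5 was at -1.02 (edgeR adjusted p = 0.0108). The summed level of the list was 1723 to 1817 CPM in the iHoxc6 libraries and 1794 to 1906 CPM in those of iHoxc9, so the ranges overlapped. Shox2, a homeodomain factor found in rhythm-generating and V2a interneurons, was among the largest changes, at 0, 0.0622 and 0.104 CPM in iHoxc6 and 5.99, 5.59 and 4.78 CPM in iHoxc9, with a log2 fold change of 6.51 (SE 0.49, edgeR adjusted p = 2.69e-09).

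Retinoid genes differed on the side of uptake, synthesis and breakdown. Of 23 genes, 2 were higher and 5 lower at the adjusted p, with 2 and 3 called. Stra6l, a receptor for the retinol carrier protein, was 0.349, 0.0934 and 0.243 CPM in iHoxc6 and 62.7, 60.8 and 55.97 CPM in iHoxc9, with a log2 fold change of 8.03 (SE 0.32, edgeR adjusted p = 5.99e-14). Cyp26a1 and Cyp26b1 encode enzymes that break down retinoic acid, and they moved in opposite directions. Cyp26a1 (chr19:37697738-37701536) was 7.6, 8.71 and 8.72 CPM in iHoxc6 and 111, 148 and 134 CPM in iHoxc9, with a log2 fold change of 3.97 (SE 0.23, edgeR adjusted p = 4.52e-11). Cyp26b1 (chr6:84571414-84593908) was 201, 303 and 257 CPM in iHoxc6 and 19.7, 29.2 and 33.9 CPM in iHoxc9, with a log2 fold change of -3.20 (SE 0.28, edgeR adjusted p = 2.28e-08). Neither pair of groups overlapped. Within runs Cyp26a1 was 0.50 for iHoxc6 minus control and 2.11 for iHoxc9 minus iHoxc10, and Cyp26b1 was 0.13 for iHoxc6 minus control and -3.33 for iHoxc9 minus iHoxc10. Stra6l was 1.59 for iHoxc6 minus control and 1.29 for iHoxc9 minus iHoxc10, with 24.5 CPM in iHoxc10. Lrat, which stores retinol as esters, was called lower (-4.15), and the binding protein gene Rbp4 (-1.75) was lower at the adjusted p alone.

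Promoters of these genes are shown from RefSeq (GRCm38.p6), since Cyp26a1 is a known direct target of retinoic acid receptors. Each is 250 bases before and 50 bases from 1 start site listed there, which can lie inside the gene's span. In Cyp26a1 (chr19:37697558-37697857, plus strand) the capitals mark TGAACT, the reverse complement of AGTTCA, a recognition unit of such receptors. It was found 32 and 21 bases before the start site used, with 5 bases between the copies. Both copies lie inside the gene span given above. In Stra6l (chr4:45848566-45848865, plus strand) the capitals mark TTTAT, a core that posterior Hox proteins prefer, found 164 and 144 bases before the start site used. That site lies inside the gene's span, which begins at chr4:45824293.
Cyp26a1: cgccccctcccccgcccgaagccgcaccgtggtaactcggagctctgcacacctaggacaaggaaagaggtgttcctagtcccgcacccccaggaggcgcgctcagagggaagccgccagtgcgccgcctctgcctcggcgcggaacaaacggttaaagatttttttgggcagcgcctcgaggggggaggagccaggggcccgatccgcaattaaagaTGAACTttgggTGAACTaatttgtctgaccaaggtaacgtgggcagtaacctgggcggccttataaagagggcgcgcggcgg
Stra6l: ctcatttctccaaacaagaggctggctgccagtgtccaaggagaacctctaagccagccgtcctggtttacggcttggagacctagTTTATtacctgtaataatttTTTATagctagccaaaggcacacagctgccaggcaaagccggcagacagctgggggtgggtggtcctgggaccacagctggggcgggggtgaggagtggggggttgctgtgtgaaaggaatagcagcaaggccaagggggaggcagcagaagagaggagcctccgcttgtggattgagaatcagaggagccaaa
Both strands were searched, with overlaps allowed, in the promoters of 14824 tested genes, 1 for each gene. AGTTCA was found in 10.9% of all promoters, in 15.1% of the 219 of genes called higher and in 11.8% of the 153 of genes called lower. It was not found in these windows of Cyp26b1 and Aldh1a2. TTTAT was found in 29.2% of all promoters, 35.6% of those called higher and 32.0% of those called lower. TAAT, a core common to many homeodomain proteins, was found in 46.1%, 53.4% and 46.4%. TGATTTAT, the letters of a motif of PBX with a Hox protein, was found in 0.607% of all promoters, in 2 of those called higher and in 0 of those called lower. These are matches of letters and were not tested.

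Transmitter and neuropeptide genes held some of the largest changes. Sst, which encodes somatostatin, was 149.7, 103 and 135 CPM in iHoxc6 and 0.391, 0.442 and 0.756 CPM in iHoxc9, with a log2 fold change of -7.94 (SE 0.27, edgeR adjusted p = 3.33e-15). Its mean was 195 CPM in control and 2.48 CPM in iHoxc10, low in both lines of that run, at -2.24 for iHoxc9 minus iHoxc10. The receptor genes Sstr1 (-3.63) and Sstr2 (-2.25) were called lower too, and Sstr3 (-1.94) was lower at the adjusted p alone. With the offset Sstr2 was at -1.95. Th, the first enzyme of catecholamine synthesis, was 123, 134 and 109 CPM in iHoxc6 and 8.57, 9.56 and 12.1 CPM in iHoxc9, with a log2 fold change of -3.60 (SE 0.24, edgeR adjusted p = 4.97e-10). Ddc (-2.19) and Dbh (-3.56), later enzymes of the same pathway, were called lower too. Slc17a6, the vesicular glutamate transporter of most spinal excitatory interneurons, was 0.209, 0.436 and 0.208 CPM in iHoxc6 and 10.6, 14.9 and 10.1 CPM in iHoxc9, with a log2 fold change of 5.34 (SE 0.34, edgeR adjusted p = 3.18e-10). In iHoxc10, of the same run as iHoxc9, it was 0.5604 CPM. Gad2, which makes GABA, was 0.0697, 0.0622 and 0.278 CPM in iHoxc6 and 1.29, 0.883 and 0.995 CPM in iHoxc9 and was called (2.93). Slc17a8 (3.38) was called at a mean of 0.501 CPM in iHoxc9. Slc17a8 had an edgeR adjusted p of 0.0141 to 0.0172 and a log2 fold change of 2.86 to 3.13 without iHoxc6 library 1 or 2. Of the 18 transmitter genes, 3 were higher and 4 lower at the adjusted p, and of 27 measured neuropeptide and somatostatin receptor genes 4 were higher and 5 lower.

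Of the peptide precursors, Adcyap1, the source of PACAP, was 2.48, 2.77 and 2.501 CPM in iHoxc6 and 46.04, 37.9 and 45.3 CPM in iHoxc9, with a log2 fold change of 4.06 (SE 0.35, edgeR adjusted p = 2.28e-08). Grp, the precursor of gastrin-releasing peptide, had a log2 fold change of 3.69 at a mean of 0.909 CPM in iHoxc9, Gal, which encodes galanin, one of 2.53, and Cartpt one of 2.24, and Cartpt was at 1.98 without iHoxc9 library 2. Promoters of Sst and Th are shown because both genes fell and both are known targets of factors that bind the cyclic AMP response element TGACGTCA, which is in capitals. Sst is chr16:23890795-23891094, minus strand, with the match 48 bases before the start site used. That site lies inside the gene's span, which runs to chr16:23891342. Th is chr7:142899946-142900245, minus strand, with the match 45 bases before its start.
Sst: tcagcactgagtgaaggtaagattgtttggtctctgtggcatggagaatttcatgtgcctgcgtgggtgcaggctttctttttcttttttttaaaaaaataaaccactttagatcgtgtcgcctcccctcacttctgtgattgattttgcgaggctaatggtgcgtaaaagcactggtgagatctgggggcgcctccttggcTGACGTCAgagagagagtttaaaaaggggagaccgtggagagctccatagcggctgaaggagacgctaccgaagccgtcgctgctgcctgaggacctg
Th: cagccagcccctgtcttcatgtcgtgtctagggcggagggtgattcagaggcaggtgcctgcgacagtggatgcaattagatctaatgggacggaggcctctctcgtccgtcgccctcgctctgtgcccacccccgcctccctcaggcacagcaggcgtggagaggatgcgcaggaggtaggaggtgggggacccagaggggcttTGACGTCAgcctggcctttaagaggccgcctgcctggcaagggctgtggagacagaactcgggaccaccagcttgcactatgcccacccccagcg
This palindrome was found in 2.80% of all promoters, in 8 of the 219 of genes called higher (3.65%) and in 7 of the 153 of genes called lower (4.58%). It is a match of letters, and its part in the lower levels of Sst and Th was not tested.

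**Figure D4:**
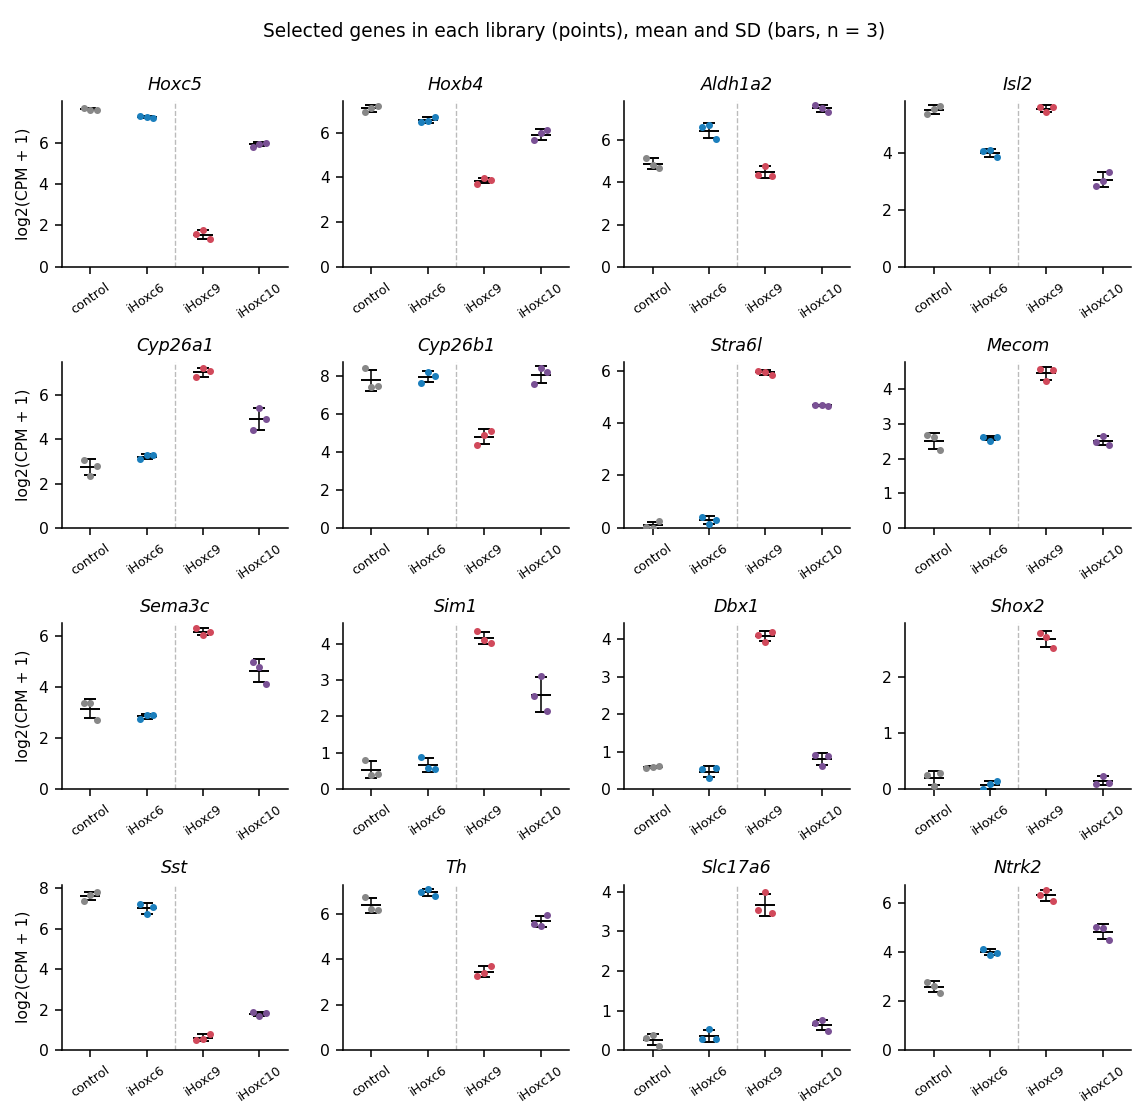
Points are single libraries of control, iHoxc6, iHoxc9 and iHoxc10, with log2(CPM + 1) on the vertical axis, and bars are the mean and SD (n = 3). The dashed line parts the sequencing runs, and Dbx1, Shox2, Mecom and Slc17a6 in iHoxc9 lie above all libraries of both runs.

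Among transmitter receptor genes more members were higher than lower in iHoxc9 at the adjusted p. For glutamate receptors 5 of 25 measured genes were higher and 2 lower, and for GABA, glycine and acetylcholine receptors 11 of 29 were higher and 1 lower, against 8.02% and 3.68% of all genes. With the offset these counts were 4 and 2, and 8 and 0, and the median of the glutamate receptors went from 0.14 to -0.22. Grm5, a metabotropic glutamate receptor, was 0.105, 0.124 and 0.0347 CPM in iHoxc6 and 9.86, 6.504 and 7.88 CPM in iHoxc9, with a log2 fold change of 6.43 (SE 0.45, edgeR adjusted p = 1.04e-09). Grin2c (2.61) and Grin3a (3.60), subunits of NMDA receptors, were called as well. Gabra4 was 0.782, 0.706 and 0.677 CPM in iHoxc9 with 2 counts in all of iHoxc6, a ratio of 32.3-fold (95% counting interval 8.56 to 273). Gabra2 (2.20), Gabrb2 (2.06) and the nicotinic subunit gene Chrna5 (2.00) were the other called members. Gabra2 was at 1.90 without iHoxc6 library 2. Gabrb2 was at 1.83 to 1.99 without iHoxc6 library 2 or iHoxc9 library 1 or 3. Chrna5 was at 1.93 to 1.98 without iHoxc6 library 2 or 3 or iHoxc9 library 1 or 3. With the offset Gabra2 was at 1.38, Gabrb2 was at 1.59 and Chrna5 was at 1.93.

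Of 40 voltage-gated channel genes, 9 were higher and 4 lower at the adjusted p, or 4 and 7 with the offset. Kcnd2, a subunit of A-type potassium channels, was 0.732, 0.622 and 0.6599 CPM in iHoxc6 and 9.07, 8.42 and 6.73 CPM in iHoxc9, with a log2 fold change of 3.58 (SE 0.34, edgeR adjusted p = 1.1e-07). Kcnb2 (2.19) and Kcna4 (2.92), both of potassium channels, were called higher and Kcnj6 (-3.06), of an inward rectifier, lower. Sodium channel genes Scn1a (1.90), Scn3a (1.58), Scn9a (1.29) and Scn2a (1.05) were higher at the adjusted p alone. The 4 genes of the list that were higher with the offset included Kcnd2 and Kcnb2, so these sodium channel genes did not all pass with it. Kcna4, below 0.6 CPM in every library, had an edgeR adjusted p of 0.0168 with the replicate block and one of 0.0321 with DESeq2's Wald test. Kcna4 had an edgeR adjusted p of 0.0176 to 0.0853 and a log2 fold change of 2.30 to 3.28 without iHoxc6 library 1 or 2 or 3 or iHoxc9 library 1 or 2. In the same way Kcnj6 had an edgeR adjusted p of 0.0124 to 0.0195 and a log2 fold change of -3.29 to -2.57 without iHoxc9 library 1 or 2. With the offset Kcnb2 was at 1.15, and Kcna4 had an adjusted p of 0.016.

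Guidance genes called without the offset were higher in iHoxc9, and 5 were called higher and 1 lower with it. Of 62 genes, 16 were higher and 4 lower at the adjusted p, or 21 and 5 with the offset, against 8.02% and 3.68% of all genes without it. Called were 7 higher and 0 lower, against 1.45% and 1.04% of all genes. Sema3c, a secreted semaphorin, was 5.65, 6.57 and 6.53 CPM in iHoxc6 and 78.5, 64.8 and 70.9 CPM in iHoxc9, with a log2 fold change of 3.51 (SE 0.22, edgeR adjusted p = 2.37e-10). The Eph receptor genes Epha7 and Epha3 had log2 fold changes of 2.73 and 2.72, and Epha7 was 5.75, 5.45 and 6.32 CPM in iHoxc6 and 39.7, 41.9 and 34.8 CPM in iHoxc9. The receptor genes Plxnc1 (2.42), Robo3 (2.31) and Dcc (2.27) and the ligand gene Sema3a (2.21) completed the list. In iHoxc10, of the same run as iHoxc9, Plxnc1 and Robo3 were near their iHoxc9 levels. For iHoxc9 minus iHoxc10 Plxnc1 was at 0.09, Robo3 at 0.02 and the other called guidance genes at 0.71 to 1.86. Robo3 and Dcc are known for the crossing of the midline by commissural axons. Lower at the adjusted p alone were Sema3e (-1.71), Unc5a (-1.66), Slit1 (-1.33) and Ntn1 (-1.11), the last made by the floor plate and by ventral progenitors. With the offset Dcc was at 1.45 and Sema3a was at 1.26, and Robo3 was at 1.93 without iHoxc9 library 2.

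Adhesion and matrix genes changed in both directions, with 8 called higher and 4 lower of 55, against 1.45% and 1.04% of all genes. Reln, which encodes the secreted protein reelin, was 2.16, 1.71 and 2.36 CPM in iHoxc6 and 31.02, 37.1 and 23.7 CPM in iHoxc9, with a log2 fold change of 3.88 (SE 0.29, edgeR adjusted p = 2.7e-09). The cadherin gene Cdh9 had 1 count in iHoxc6 and was 1.53, 1.35 and 1.35 CPM in iHoxc9, a ratio of 126-fold (95% counting interval 22.2 to 5020). Cdh8 was 0.453, 0.622 and 0.764 CPM in iHoxc6 and 14.6, 15.4 and 15.2 CPM in iHoxc9. Itga1 (4.33), Pcdh11x (3.27), Pcdh17 (3.02), Col1a1 (2.54) and Cdh12 (2.30) were called higher. Called lower were Cdh1, the epithelial cadherin, at 5.51, 7.62 and 5.63 CPM in iHoxc6 and 0.313, 0.383 and 0.199 CPM in iHoxc9, Itga2 (-3.48), Col25a1 (-2.55) and Col1a2 (-2.19). The subunits of type I collagen thus differed in sign, both at low levels. Col1a1 had an edgeR adjusted p of 0.0215 to 0.0317 and a log2 fold change of 2.22 to 2.29 without iHoxc6 library 2 or 3 or iHoxc9 library 2. Col1a2 had an edgeR adjusted p of 0.012 to 0.0169 and a log2 fold change of -2.07 to -1.82 without iHoxc6 library 1 or iHoxc9 library 1. Col25a1 had an edgeR adjusted p of 0.0104 to 0.0197 and a log2 fold change of -2.61 to -2.27 without iHoxc6 library 1 or 3 or iHoxc9 library 1 or 2 or 3. With the offset Cdh12 was at 1.23.

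Neurotrophic receptors and ligands were mostly higher in iHoxc9 where they differed. Ntrk2, the receptor of BDNF, was 16.4, 13.9 and 14.7 CPM in iHoxc6 and 79.9, 91.5 and 66.7 CPM in iHoxc9, with a log2 fold change of 2.40 (SE 0.21, edgeR adjusted p = 2.18e-08). The groups were apart, and within runs Ntrk2 was 1.56 for iHoxc6 minus control and 1.51 for iHoxc9 minus iHoxc10. Of 23 neurotrophic genes, 7 were higher and 1 lower at the adjusted p, with 5 and 1 called. Over all genes 8.02% were higher and 3.68% lower, with 1.45% and 1.04% called. Gfra2 (2.57) and Gfra3 (2.03) encode receptors of the GDNF family, and Bdnf (2.05) was 0.314, 0.311 and 0.347 CPM in iHoxc6 and 1.68, 1.27 and 1.11 CPM in iHoxc9. Ret, the signalling receptor shared by GFRA proteins, was higher at 0.50 and Ntrk3 at 0.99. With the offset Ntrk2 was at 1.96, Bdnf was at 1.5 and Met was at 1.89. Gfra3 was at 1.86 to 1.99 without iHoxc6 library 1 or 2 or iHoxc9 library 3. Bdnf was at 1.87 to 1.97 without iHoxc6 library 2 or iHoxc9 library 1. Of Bdnf exons 14.4% are shared with another gene.

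Pou4f3, a POU factor of sensory cells, had 0 counts in iHoxc6 and was 2.78, 2.796 and 2.67 CPM in iHoxc9, at least 82.2-fold higher. It had 0 counts in control and was at 0.199 CPM in iHoxc10. Of 13 genes of POU4 and sensory type, 5 were higher and 2 lower at the adjusted p, with Ntrk2, Tlx3, Ntrk3 and P2rx3 (0.77) also on the higher side and Isl1 on the lower.

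Of 38 BMP and TGF-beta genes 2 were called higher and 2 lower, against 1.45% and 1.04% of all genes. Tgfbr2, a TGF-beta receptor, was 5.299, 6.38 and 3.96 CPM in iHoxc6 and 0.704, 1.24 and 0.438 CPM in iHoxc9, with a log2 fold change of -2.67 (SE 0.36, edgeR adjusted p = 1.12e-05), and the ligand gene Bmp6 was at -2.43. Gdf10, with 2 counts in iHoxc6, had a ratio of 14.8-fold (95% counting interval 3.74 to 128), and Fst, an antagonist of activins, was at 2.14. Both were below 0.9 CPM in every library. Gdf10 had an edgeR adjusted p of 0.0265 to 0.0308 and a log2 fold change of 3.11 to 3.40 without iHoxc6 library 1 or 3 or iHoxc9 library 1 or 2. Fst had an edgeR adjusted p of 0.0188 to 0.0353 and a log2 fold change of 1.88 to 2.44 without iHoxc6 library 1 or 2 or 3 or iHoxc9 library 1 or 2. DESeq2's Wald test gave Gdf10 an adjusted p of 0.0148, and the edgeR fit with the offset gave Fst one of 0.0119. Tgfbr1 (1.22), Bmpr2 (1.05) and Gdf11 (0.87) were higher and the target genes Id3 (-1.20) and Id1 (-0.97) lower at the adjusted p alone.

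For Wnt signalling, 4 of 43 genes were called higher and 0 lower, against 1.45% and 1.04% of all genes. Lgr5, a receptor of R-spondins, was 0.139, 0.249 and 0.313 CPM in iHoxc6 and 3.36, 4.36 and 2.79 CPM in iHoxc9, with a log2 fold change of 3.88 (SE 0.34, edgeR adjusted p = 2.69e-08). The ligands Rspo2 (2.82) and Wnt11 (3.18) and the modulator Dkk2 (4.41) were the others, and Wnt5b (-1.55), Wnt7b (-1.46) and Wnt7a (-0.99) were lower at the adjusted p alone. Of 25 FGF genes, Fgf10 was called higher, at 0.314, 0.187 and 0.174 CPM in iHoxc6 and 4.19, 3.38 and 4.14 CPM in iHoxc9, with a log2 fold change of 4.10 (SE 0.36, edgeR adjusted p = 3.21e-08). Fgf15 was called lower with 1 count in iHoxc9, a ratio of 29.3-fold (95% counting interval 4.88 to 1190), and 25.7% of its exons are shared with another gene. The feedback genes Dusp6 (-1.15), Etv4 (-1.23), Etv5 (-0.79) and Spry1 (-0.77) were lower at the adjusted p, while Spry2 (0.91) and Spred1 (0.80) were higher. Of 21 Notch genes 0 were called by edgeR and 0 by DESeq2, with 10 at an unadjusted p under 0.05. At the adjusted p 3 were higher and 4 lower, or 1 and 1 with the offset. The target gene Hes5, which shares 31.8% of its exon length, was at -1.48 and the ligand gene Jag1 at 1.31.

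Hedgehog genes and floor plate markers overlap in Shh, the ligand, which was 34.6, 42.6 and 25.8 CPM in iHoxc6 and 3.87, 8.36 and 3.15 CPM in iHoxc9, with a log2 fold change of -2.73 (SE 0.43, edgeR adjusted p = 9.26e-05) and 28.3% of its exon length shared with another gene. Foxa1 (-2.16) was called lower, and Spon1 (-1.48) and Foxa2 (-1.38), which define the floor plate, were lower at the adjusted p alone. Of the 11 measured markers of endoderm and floor plate, 5 were lower and 1 was higher. Their summed level was 264 to 399 CPM in the iHoxc6 libraries and 85.5 to 136 CPM in those of iHoxc9, against 159 to 210 CPM in control and 199 to 358 CPM in iHoxc10. Hhip, which binds and limits Hedgehog ligands, was higher, at 4.88, 3.92 and 4.72 CPM in iHoxc6 and 20.6, 23.3 and 15.1 CPM in iHoxc9, with a log2 fold change of 2.13 (SE 0.27, edgeR adjusted p = 4.31e-06). Of 18 Hedgehog genes 4 were higher and 4 lower at the adjusted p, or 4 and 1 with the offset. Gli2 (1.46) and Boc (1.00) were higher at the adjusted p alone. Nkx2-9 was called lower (-2.14), and its adjusted p was 0.0102 with a filter of at least 10 counts in 3 samples. Nkx2-9 had an edgeR adjusted p of 0.0145 to 0.0296 and a log2 fold change of -2.35 to -1.90 without iHoxc6 library 1 or 3 or iHoxc9 library 1 or 2 or 3. Hhip was at 1.99 without iHoxc6 library 2 or iHoxc9 library 2. With the offset Foxa1 was at -1.93, Hhip was at 1.49 and Nkx2-9 was at -1.70. The part of floor plate cells in the other differences was not tested.

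Of 11 measured CDX and trunk axial genes, 0 were called by edgeR or DESeq2 and 5 had an unadjusted p under 0.05, and 3 were higher at the adjusted p, Lin28b (1.11), Hmga2 (0.98) and Gdf11, or 2 higher and 1 lower with the offset. Lin28b was then at 0.41 (edgeR adjusted p = 0.126) and did not pass the test. Cdx2 and Cdx4 had 0 counts in both groups. Of 23 proliferation genes 0 were higher and 3 lower at the adjusted p, against 8.02% and 3.68% of all genes, and 12 had an unadjusted p under 0.05 by edgeR. Ccnd1, the cyclin of early G1, was 18.7, 16.8 and 19.1 CPM in iHoxc6 and 0.665, 1.32 and 1.07 CPM in iHoxc9, with a log2 fold change of -4.12 (SE 0.29, edgeR adjusted p = 9.3e-10). In the same run iHoxc10 had 16.9 CPM, and the value was -4.02 for iHoxc9 minus iHoxc10. Of its exon length 23.4% is shared with another gene. Cdk1 (-0.58) and Ccne1 (-0.60) were the others. The summed level of the list was 2236 to 2465 CPM in iHoxc6 and 1861 to 2117 CPM in iHoxc9, which did not overlap. The control libraries ran from 1644 to 2931 CPM, a range that covers both groups, and those of iHoxc10 from 1254 to 1618 CPM.

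Imprinted genes were higher in iHoxc9 where they differed. Of 33 measured genes, 11 were higher and 0 lower at the adjusted p, against 8.02% and 3.68% of all genes, or 10 and 1 with the offset. Dlk1, a paternally expressed gene, was 8.47, 8.19 and 5.77 CPM in iHoxc6 and 53.6, 71.3 and 51.4 CPM in iHoxc9, with a log2 fold change of 2.97 (SE 0.39, edgeR adjusted p = 9.59e-06). Its neighbour Rtl1 was at 3.31 and Asb4 at 2.19. Peg10 was 189 ± 27.8 CPM in iHoxc6 and 756 ± 79.5 CPM in iHoxc9 (2.00, not beyond 2), and Plagl1 (1.73), Grb10 (1.55), Ube3a (1.54) and Igf2 (1.20) were higher at the adjusted p alone. Dlk1 was near its iHoxc9 level in iHoxc10, at 48.1 CPM, so that iHoxc9 minus iHoxc10 was 0.29. With the offset Asb4 was at 1.94, and Asb4 was at 1.88 to 1.98 without iHoxc6 library 3 or iHoxc9 library 2.

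Markers of other cell types were checked as lists. Pluripotency markers summed to 1.03 to 1.64 CPM in iHoxc6 and 1.72 to 1.85 CPM in iHoxc9, 0 of 11 were called by edgeR or DESeq2, 1 had an unadjusted p under 0.05, and Tdgf1, Utf1 and L1td1 had 0 counts. Markers of mesoderm, endothelium and muscle summed to 11.01 to 13 CPM and 10.2 to 15.3 CPM, and of 20 measured genes 3 were called lower and 1 higher. The lower ones were Acta2 (-3.54), Twist1 (-4.10) and Tnnt2, which had 0 counts in iHoxc9 and was at least 5.35-fold lower. Tnnt2 was below 0.25 CPM in every library. Tnnt2 had an edgeR adjusted p of 0.0101 to 0.0164 and a log2 fold change of -5.54 to -5.49 without iHoxc9 library 1 or 2 or 3. Neural crest and glial markers summed to 173 to 187 CPM in iHoxc6 and 183 to 198 CPM in iHoxc9. Among these, Sox10, which defines the crest and its glia, was 0.872, 0.653 and 0.625 CPM in iHoxc6 and 0.0782, 0.206 and 0.119 CPM in iHoxc9 (-2.32), and Aldh1l1 was at -2.07. Sox10 had an edgeR adjusted p of 0.0105 and a log2 fold change of -2.07 without iHoxc9 library 1. Aldh1l1 was at -1.88 to -1.83 without iHoxc6 library 2 or iHoxc9 library 1. With the offset Aldh1l1 was at -1.91.

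Mitochondrially encoded genes were higher in iHoxc9, with 6 of 13 past the adjusted p, 0 lower, and a median of 1.10. Their summed level was 14810 to 16820 CPM in the iHoxc6 libraries and 26620 to 28110 CPM in those of iHoxc9. In control it was 19110 to 32240 CPM and in iHoxc10 23250 to 28150 CPM, so the iHoxc6 libraries were the low ones. ATP8, whose reading frame overlaps that of ATP6, was the called gene (3.60). Stress and hypoxia genes held 1 higher and 2 lower of 28 and 0 called by edgeR or DESeq2, with 11 at an unadjusted p under 0.05. Jun, an immediate early gene, was 51.5, 45.2 and 41.7 CPM in iHoxc6 and 135, 125 and 119 CPM in iHoxc9 (1.45), and Slc2a1, a glucose transporter, was at -1.27. The part of these lists in the other differences was not tested.

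**Figure D5:**
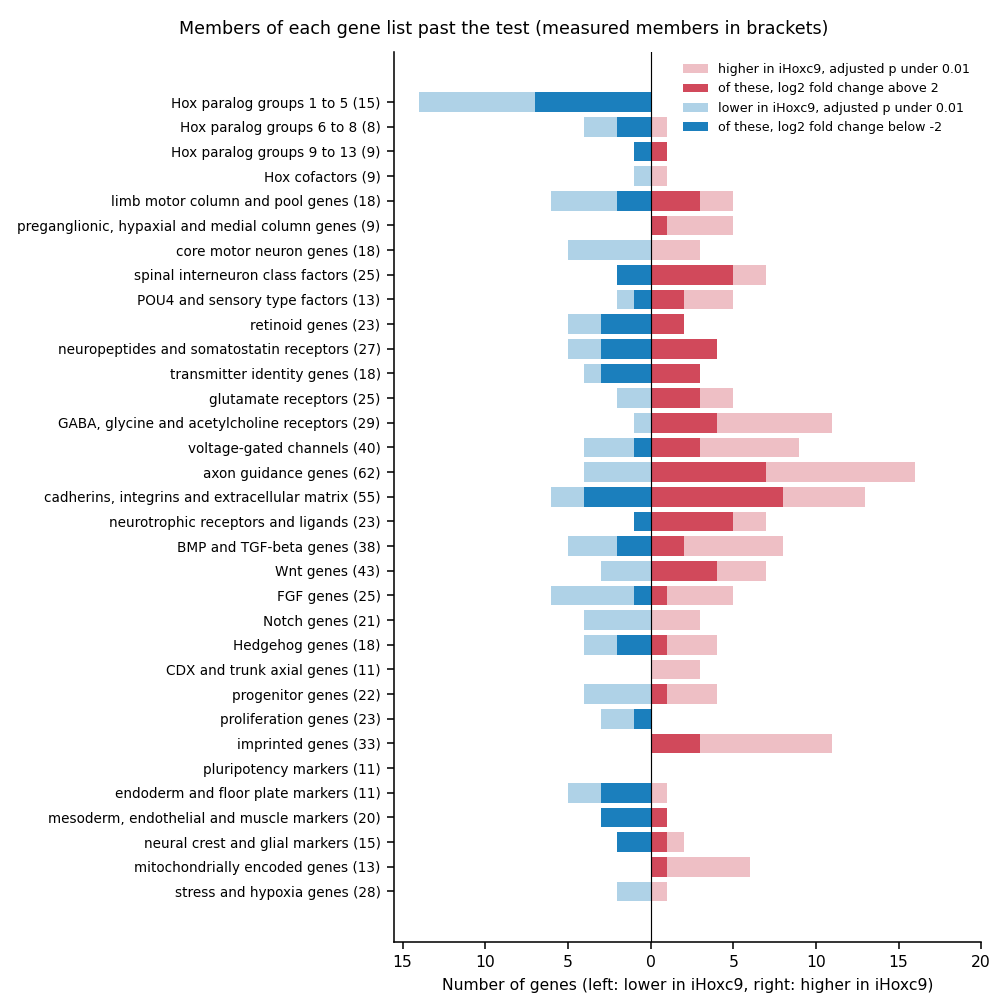
Bars count the members of each list at an adjusted p under 0.01, higher in iHoxc9 to the right and lower to the left, with darker bars for those called, and the number of measured members is in brackets. Hox paralog groups 1 to 5 have 14 members on the left and 0 on the right, and imprinted genes have 11 on the right and 0 on the left.

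The largest changes outside these lists were found at low levels in 1 of the groups. Higher in iHoxc9 were Slitrk6, a synaptic adhesion protein, at 1.53, 1.12 and 1.23 CPM with 0 counts in iHoxc6 (at least 38.1-fold), and Scgn, the calcium binder secretagogin, at 1.02, 1.06 and 1.51 CPM (at least 35.3-fold). Dgkb, a diacylglycerol kinase, had 1 count in iHoxc6 and was 2.93, 3.15 and 2.83 CPM in iHoxc9, a ratio of 268-fold (95% counting interval 47.6 to 10600). Scn7a (5.58), a sodium channel gene, Pappa2 (5.08), a protease of insulin-like growth factor binding proteins, and Il1rapl2, with a ratio of 47.1-fold (95% counting interval 12.7 to 395), followed. None of these exceeded 0.3 CPM in an iHoxc6 library. Lower in iHoxc9 was Fgb, the beta chain of fibrinogen, at 5.26, 8.96 and 4.93 CPM in iHoxc6 and with 1 count in iHoxc9, a ratio of 549-fold (95% counting interval 98.1 to 21700). Il1r1, the receptor of interleukin-1, was 1.05, 1.898 and 1.32 CPM in iHoxc6 with 0 counts in iHoxc9 (at least 40.6-fold lower). Corin, a serine protease, had a ratio of 186-fold (95% counting interval 33 to 7390), and ccdc198 one of 146-fold (95% counting interval 40.2 to 1210). Tbx20, a T-box factor of cranial motor neurons and heart, was 1.36, 1.99 and 1.598 CPM in iHoxc6 and had a ratio of 70.4-fold (95% counting interval 19.1 to 587). Gfi1, a zinc finger repressor, had a ratio of 47.6-fold (95% counting interval 16 to 233), 1700024G13Rik one of 58.6-fold (95% counting interval 15.9 to 489) and Usp18, a protease that removes ISG15, one of 29-fold (95% counting interval 9.61 to 143). These intervals cover counting error only. Tgm2, a transglutaminase, was 17.7, 27.1 and 15.6 CPM in iHoxc6 and 0.8997, 0.883 and 0.796 CPM in iHoxc9, with a log2 fold change of -4.54 (SE 0.37, edgeR adjusted p = 9.26e-09), and shares 21.8% of its exon length with another gene. The tight junction gene Cldn3 (-4.71), Ppfibp2 (-4.72) and Hkdc1 (-4.99), a hexokinase relative, were the remaining ones.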

How the data were processed

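RNA was measured by polyA-selected, stranded RNA-seq in 18 libraries, 3 for each of 6 groups, from independent differentiations per the study. The authors aligned reads to mm10 with STAR 2.7.0c, counted reads per gene with featureCounts and deposited raw read counts for 27179 Entrez genes; the strand setting of the counting is not given in the sources used here. Picard 2.8.2 and DESeq2 1.20.0 are named in the submitters' processing notes.

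Groups were taken from the labels. Counts were fitted with edgeR 4.0.16 (R 4.3.3, quasi-likelihood test, TMM) over all 18 libraries with 1 term per group, for the 20944 genes that an iHox library detected with 1 count or more. Total counts of the 6 libraries compared were 24498630 to 33168533. Called genes had an adjusted p below 0.01 and an absolute log2 value above 2. CPM, SE and folds against 0 to 3 counts (floor of 3 counts, exact 95% intervals, counting error only) were computed from the counts. Genes were named where a list member was called (otherwise the 2 largest changes of the list at 1 CPM or more), where they were Hox genes or Aldh1a2, or among the 15 largest changes in each direction at 1 CPM or more with groups apart; Hprt and members given only by a log2 value are exceptions. Some named genes are not reported here, though list counts include them. The members and gene lists were chosen with earlier results of these data known, so list counts are descriptions. Symbols and promoters came from RefSeq GRCm38.p6, and exon lengths and GC content from GENCODE M21.

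Replicate numbers come from the labels. Same-numbered libraries deviated together weakly (correlations 0.144, 0.212 and 0.12 for numbers 1 to 3), against -0.257 to 0.0931 for pairs of different numbers. Deviations were taken from the mean of 3 libraries, which ties these correlations to each other, so they do not establish a pairing. The fit with the replicate number as a block is given where it changes a call. Alternatives were DESeq2 1.42.0, its size factors, a stricter filter, a fit of 2 groups, a lower fold threshold and leaving out each library; the offset for GC content, span and exon length and the block in the fit of 2 groups were chosen after seeing the data. On simulated counts, 200 genes changed by a log2 value of 3 were recovered at 100% with 0 other calls among 20039 genes. The changed genes were drawn from those over 1 CPM in iHoxc6, and no trend with GC content, length or run was simulated. The simulation therefore cannot judge calls at lower levels or calls that move with such trends.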

Additional observations from a re-analysis of the deposited data

How the results depend on the processing

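Of the 521 genes called, 0 changed sign in any alternative. DESeq2 gave no adjusted p for 4 of them, and the stricter filter left out 39. Every alternative refits the same libraries, and the calls were beyond a log2 value of 2. A change of sign was thus unlikely from the start, and its absence is not separate support. The number called was 503 with DESeq2's Wald test, 526 with its size factors, 481 with the stricter filter, 598 with only both groups in the fit, 497 with the replicate block, 437 with the offset, 414 with the offset and the block, and 419 to 475 when 1 library was left out. A log2 fold change above 1 gave 1394. The 2450 genes at the adjusted p alone became 6620 with only both groups in the fit, 7266 with the block added to that fit, and 1243 to 1738 when 1 library was left out, lowest without iHoxc6 library 2. Of these, 68.6% were higher in iHoxc9 in the main fit, 54.8% with both groups alone, 54.0% with the block added, 55.0% with the offset and 55.1% with the offset and the block. Of 154 named genes 122 were called, 84 of them in every alternative, and 25 were lost with the offset. With the replicate block the call of Kcna4 was lost, that of Hoxb1 was gained, and no other named call changed. Precision at low levels is limited by depth, since 166 called genes were below 1 CPM in both groups. Causes were not tested.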
